A study of Mus musculus with 12 samples.

Results

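Mouse neural stem cells that carried the K27M form of histone H3.3 were compared with cells that carried wild-type H3.3, both grown with the solvent DMSO. The 6 libraries of this comparison were chosen by their labelled genotype and treatment, with 3 libraries per genotype out of 12 in the series. Their table lists 14040 of the 14610 genes listed in any table of the series, and 13129 of them passed a filter on low counts and were tested. All groups were PDGFB-driven neural stem cells in a medium with epidermal and basic fibroblast growth factors, a culture that the submitters describe as a mouse model of diffuse intrinsic pontine glioma, a brainstem tumour of children. The K27M DMSO and H3WT DMSO cells differed in their H3.3. The K27M EPZ and H3WT EPZ cells had 3 µM of the EZH2 inhibitor EPZ6438 in place of DMSO, and treatment lasted 12 days in every group. The labels give no strain, age, clone or level of the introduced histone, and do not say that replicates were separate cultures, so p-values cover the spread among these samples alone, which may be technical. Cultured cells lack the other cell types of a brainstem tumour.

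H3.3 is the histone H3 variant that is laid down outside DNA replication, and K27M replaces lysine 27 of its tail with methionine. The Polycomb complex PRC2, with the methyltransferase EZH2, places methyl groups on this lysine, and the trimethylated form marks silent developmental genes. K27M histones are known to hinder PRC2 and to lower this mark over most of the genome, while some CpG-rich sites keep it. EZH2 inhibitors such as EPZ6438 block the enzyme itself.

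Start sites of 4 transcripts carry results described further on and are shown with every CpG in capitals because PRC2 is recruited at CpG-rich starts. Each is 300 bases from RefSeq's GRCm38.p6 annotation, on the minus strand, with 250 bases before the annotated start. The first belongs to the Cdkn2a transcript that begins with exon 1β and encodes p19Arf (chr4:89294570-89294869), and the next to the transcript that begins with exon 1α and encodes p16Ink4a (chr4:89282143-89282442). The others are those of Hoxa5 (chr6:52204538-52204837) and Hoxa9 (chr6:52227321-52227620).
Cdkn2a-202: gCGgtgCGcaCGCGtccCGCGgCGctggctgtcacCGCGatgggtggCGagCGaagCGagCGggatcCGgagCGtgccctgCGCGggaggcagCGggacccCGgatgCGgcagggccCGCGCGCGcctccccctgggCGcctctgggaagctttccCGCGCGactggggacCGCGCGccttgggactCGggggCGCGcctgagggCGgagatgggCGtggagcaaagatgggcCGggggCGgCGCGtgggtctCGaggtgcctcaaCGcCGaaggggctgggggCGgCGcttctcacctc
Cdkn2a-201: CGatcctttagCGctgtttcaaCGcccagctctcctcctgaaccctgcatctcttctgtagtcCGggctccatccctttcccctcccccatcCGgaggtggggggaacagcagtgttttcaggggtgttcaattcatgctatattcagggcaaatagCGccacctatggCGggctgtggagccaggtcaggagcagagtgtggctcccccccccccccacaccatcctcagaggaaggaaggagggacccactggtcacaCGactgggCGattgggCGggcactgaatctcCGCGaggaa
Hoxa5-201: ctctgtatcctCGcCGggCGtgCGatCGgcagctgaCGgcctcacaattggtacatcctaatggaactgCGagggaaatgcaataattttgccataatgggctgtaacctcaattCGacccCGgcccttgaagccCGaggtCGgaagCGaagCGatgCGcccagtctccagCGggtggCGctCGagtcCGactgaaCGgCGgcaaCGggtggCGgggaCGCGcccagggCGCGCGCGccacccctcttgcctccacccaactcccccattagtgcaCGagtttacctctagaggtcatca
Hoxa9-201: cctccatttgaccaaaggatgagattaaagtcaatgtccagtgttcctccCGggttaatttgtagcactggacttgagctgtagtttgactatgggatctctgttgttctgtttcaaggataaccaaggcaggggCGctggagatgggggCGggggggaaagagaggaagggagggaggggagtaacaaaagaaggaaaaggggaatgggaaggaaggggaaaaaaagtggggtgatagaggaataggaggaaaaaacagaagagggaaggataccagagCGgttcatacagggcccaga
The p19Arf start held 45 CpGs, a number reached by 1.9% of the 32851 promoters of this length in the annotation. The p16Ink4a start held 12 (39.6% of promoters have as many), Hoxa5 held 29 (12.9%) and Hoxa9 held 4 (68.6%), against a median of 7. These counts describe the letters in each window and say nothing about binding there. The RefSeq start of the p19Arf transcript lies 34 bases from that of the transcript model whose reads were counted.

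The libraries differed in more than genotype. Total estimated counts, in megacounts (M), were 10.80 to 15.76 M in the wild-type and 22.05 to 24.08 M in the K27M libraries. Transcripts poor in G and C were relatively low in wild-type replicates 2 and 3 and relatively high in all 3 K27M libraries, with wild-type replicate 1 between them. The median log2 fold change of K27M over wild type was 1.02 over the 552 genes below 40% GC and -0.38 over the 650 genes above 60% GC. Wild-type replicate 1 stood apart in its counts: chi-square per gene was 22.9 against replicate 2 and 19.2 against replicate 3, while replicates 2 and 3 gave 2.93 and pairs of K27M libraries 2.71 to 3.73. GC content and genotype cannot be told apart here by design, so calls are counted in 2 fits, the plain one and a GC-adjusted one in which each library's trend was taken out. A value given once is from the plain fit, and the GC-adjusted value of a gene's fold change stands beside it where the folds differ by more than 1.5 times. Summed markers of neural stem cells stood at 6974 to 7228 CPM (counts scaled to library size) in the wild-type and 6419 to 6542 CPM in the K27M libraries, so the defining markers of the labelled cell type are present. Oligodendrocyte precursor markers summed to 3260 to 3783 and 2631 to 2821 CPM, astrocyte markers to 184.7 to 215.9 and 198.7 to 200.3 CPM, and 3 of 4 neuronal markers to 8.27 to 9.02 and 11.1 to 12.5 CPM. Of 7 microglia and immune markers 1 was listed, at 1.08 CPM or less, while Ptprc, Cx3cr1, Aif1, Csf1r, Itgam and Tyrobp were not listed. Of 5 endothelial markers 2 were listed and 1 was tested, at 6.04 to 8.37 CPM, and of 5 fibroblast markers 1 was listed, at 1.90 to 2.54 CPM. The part of these levels in the results was not tested.

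**Figure D1:**
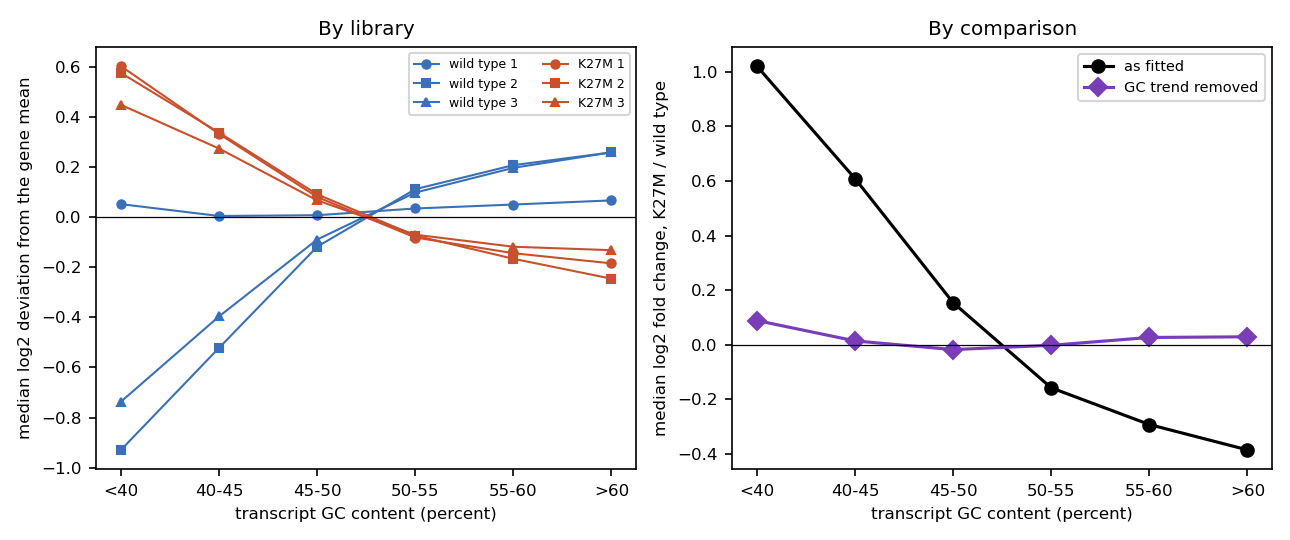
Left, median log2 deviation from the gene mean (y) by transcript GC content in percent (x), with a line for each of the 6 DMSO libraries. Right, median log2 fold change of K27M over wild type in the plain and the GC-adjusted fit. In the GC-poorest genes the wild-type libraries sit at 0.05, -0.93 and -0.74 and the K27M libraries at 0.60, 0.58 and 0.45, and the median fold change of 1.02 falls to 0.09 once the trend is removed.

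The genotypes differed in a large share of the genes. Of the 13129 genes tested 7897 (60.1%) were called by edgeR's quasi-likelihood test at a Benjamini-Hochberg adjusted p below 0.05. Of these 3906 rose (29.8% of those tested), meaning that they were higher in K27M than in wild-type cells, and 3991 fell (30.4%). The 3 libraries of one genotype all lay above the 3 of the other in 9215 genes (70.2%). In the GC-adjusted fit 2756 genes rose and 2900 fell. The genes called in the same direction in both fits were 1829 rises (13.9%) and 1867 falls (14.2%), and they are called shared calls in what follows. At 2-fold or more in both fits there were 260 shared rises and 68 shared falls. Percentages given with a gene list are of its tested genes. They are to be read beside 29.8% rises, 30.4% falls, 13.9% shared rises and 14.2% shared falls over all genes. In bulk cultures a lower level can mean fewer cells that express a gene or less RNA per cell, which cannot be told apart.

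H3f3a and H3f3b, the mouse genes of H3.3 itself, did not pass the plain test. H3f3a stood at 63.7, 70.0 and 67.0 CPM in the wild-type and 66.1, 59.6 and 66.4 CPM in the K27M libraries, which overlap (log2 fold change -0.06, SE 0.06, adjusted p = 0.429). H3f3b stood at 448, 470 and 460 against 438, 431 and 435 CPM (-0.08, SE 0.03, adjusted p = 0.0790), and at -0.74 in the GC-adjusted fit (adjusted p = 0.00539). The tables do not separate mutant from wild-type H3.3 reads, so they do not check the genotype labels.

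Of 11 tested PRC2 subunits 8 rose (72.7%) and 0 fell in the plain fit, and 4 rose and 1 fell in the GC-adjusted fit. The shared rises were 4 (36.4%) and the shared falls 0. With single libraries left out the rises numbered 4 to 8 and the shared rises 2 to 6, and they were 4 and 2 without wild-type replicate 3, K27M replicate 1 or K27M replicate 2, and 5 and 3 without K27M replicate 3. The list's median log2 fold change was 0.48 (0.20 in the GC-adjusted fit) against medians of -0.003 and 0.01 over all genes tested. Ezh2, the catalytic subunit, stood at 132, 102 and 105 CPM in wild-type and 201, 196 and 192 CPM in K27M libraries. The groups are well separated, and the log2 fold change of 0.79 (SE 0.10, adjusted p = 0.00197) became 0.33 in the GC-adjusted fit. Jarid2, an accessory subunit that helps to recruit PRC2, went from 60.3, 48.3 and 53.5 to 87.7, 83.9 and 87.4 CPM, a log2 fold change of 0.68 in both fits. Rbbp7, a histone-binding subunit, rose 1.40-fold and overlaps Txlng. Suz12, a core scaffold, rose 2.38-fold, from 80.5, 31.5 and 40.1 to 128, 122 and 114 CPM, a log2 fold change of 1.25 that became 0.58 in the GC-adjusted fit. Its call was lost without wild-type replicate 3 (adjusted p = 0.0675) or without K27M replicate 1 (0.0568) or 2 (0.0543).

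Cdkn2a produces the cell cycle inhibitor p16Ink4a and the p53 activator p19Arf from alternative first exons, and both listed transcripts fell, by unequal amounts. The p16Ink4a transcript had 177, 146 and 293 counts in the wild-type and 15, 29 and 28 counts in the K27M libraries. Every K27M library lay far below every wild-type one, and the mean of 15.3 ± 3.14 CPM (SD, n = 3, as for every mean here) dropped to 1.04 ± 0.312 CPM, 14.7-fold lower (log2 fold change -3.88, SE 0.32, adjusted p = 0.00769). The p19Arf transcript had 562, 473 and 695 counts in wild-type and 284, 282 and 324 counts in K27M libraries. It fell 3.40-fold, from 43.8 ± 1.31 to 12.9 ± 0.630 CPM (-1.77, SE 0.08, adjusted p = 0.00572). Of 35047 transcripts tested one by one 4541 were called (13.0%). The test of whether the transcripts of 1 gene changed unequally, edgeR's diffSpliceDGE, called 1167 of 7539 genes (15.5%), and Cdkn2a passed it (adjusted p = 2.20e-05). In the GC-adjusted fit the same test called 4029 of the 7539 genes. A pass there was common and sets Cdkn2a less apart (adjusted p = 1.07e-09). Both transcripts share exons 2 and 3, so their counts rest on the authors' statistical division of shared reads. This transcript test was added after the data were seen.

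Other inhibitors of cyclin-dependent kinases moved in both directions. Of 7 INK4 and Cip/Kip genes 2 rose and 2 fell (28.6% each), all shared calls, and 4 fell in the plain fit without wild-type replicate 1. Over all genes tested 29.8% rose and 30.4% fell, with shared calls in 13.9% and 14.2%. Cdkn1c, an imprinted inhibitor of the Cip/Kip family, stood at 4.11, 5.06 and 3.75 CPM in wild-type and 9.79, 9.62 and 9.10 CPM in K27M libraries. The groups do not overlap and the rise was 2.23-fold (log2 fold change 1.16, SE 0.13, adjusted p = 0.00137). Cdkn1b rose 1.71-fold, and Cdkn1a, the p21 gene that p53 activates, fell 1.37-fold, a call lost with GC and length trends removed (adjusted p = 0.121). Among 20 p53 target genes 6 rose (30%) and 8 fell (40%), with 2 shared rises (10%) and 7 shared falls (35%). There were 10 rises without wild-type replicate 1 and 1 shared rise without any of the 6 libraries. The list's median was 0.09 and turned to -0.22 in the GC-adjusted fit. The apoptosis gene Bax went from 224 ± 16.8 to 134 ± 5.86 CPM, a 1.67-fold fall (adjusted p = 0.000848, or 0.0593 with GC and length trends removed). Sesn2, a stress-induced regulator of growth signalling, fell 1.77-fold, the nuclease gene Aen 1.57-fold and the death receptor gene Tnfrsf10b 1.40-fold. Perp, whose product sits in desmosomes and promotes apoptosis, rose 1.62-fold.

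Among 20 mitosis genes 11 rose (55%) and 3 fell (15%), with 8 shared rises (40%) and 0 shared falls. These counts depended on single libraries: with each library left out in turn the rises numbered 3 to 11, the falls 0 to 5, the shared rises 2 to 9 and the shared falls 0 to 3. Without wild-type replicate 1 the shared rises and falls were 9 and 3, and the rises were 7 without wild-type replicate 2, 3 without wild-type replicate 3 and 4, 5 and 6 without K27M replicates 1, 2 and 3. Mki67, the proliferation marker, stood at 519, 158 and 198 CPM in the wild-type and 839, 758 and 646 CPM in the K27M libraries, with wild-type replicate 1 closer to the K27M group than the other 2. Its rise of 2.57-fold (adjusted p = 0.0358) kept its call only without wild-type replicate 1, and the adjusted p was 0.0654 to 0.113 without any of the other 5. Cenpe, a kinetochore motor, gave 86.4, 28.1 and 34.2 against 145, 135 and 115 CPM (2.65-fold, adjusted p = 0.0256). It also kept its call only without wild-type replicate 1 (0.0525 to 0.0872 without the others). Bub1, a spindle checkpoint kinase, rose 2.17-fold, or by 0.39 on the log2 scale in the GC-adjusted fit, and lost its call without wild-type replicate 3 (0.0529). Kif23, a cytokinesis motor, rose 1.65-fold and lost its call without wild-type replicate 3 (0.0555) or K27M replicate 1 (0.0504). Top2a, which untangles DNA, rose 1.89-fold and was called in all 6 refits.

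**Figure D2:**
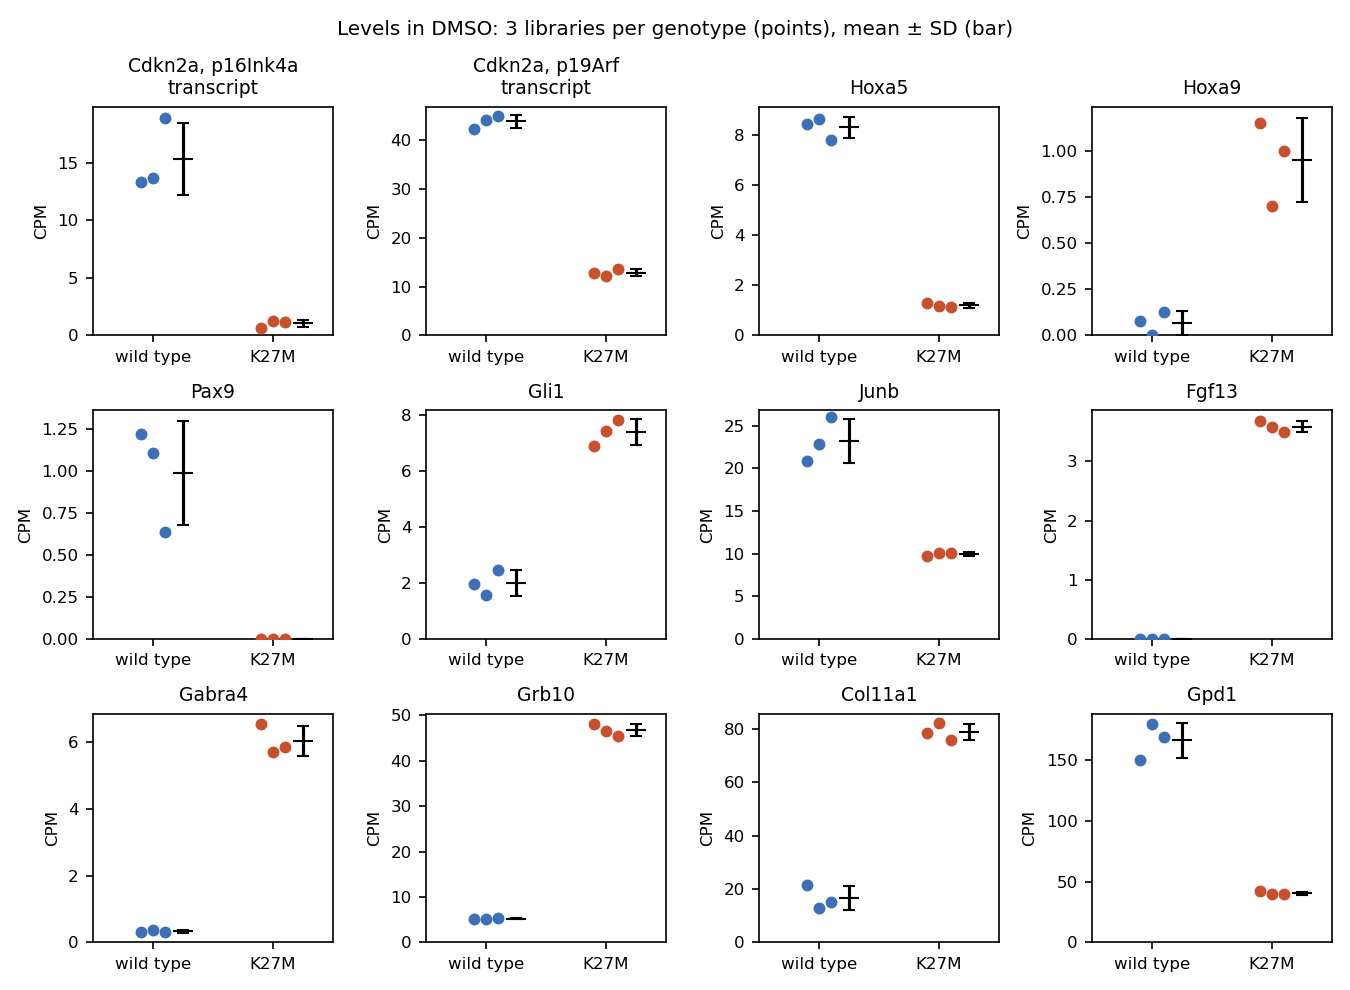
Level in CPM (y, linear from 0) in wild-type and K27M cells in DMSO (x), with 1 point per library and the mean ± SD as a bar, for 2 Cdkn2a transcripts and 10 genes. The 3 wild-type points are above the 3 K27M points for both Cdkn2a transcripts, Hoxa5, Pax9, Junb and Gpd1, and below them for the other 6 genes.

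Hox genes, which assign position along the body axis and are classic PRC2 targets, were mostly too low to test: 7 of 39 passed the filter. The 6 described here lie in the HoxA cluster (chromosome 6, 52162417 to 52240854, minus strand). The called genes moved in blocks of opposite direction: Hoxa3, Hoxa4 and Hoxa5 fell, while Hoxa9 and Hoxa10 rose. Hoxa5 stood at 8.44, 8.64 and 7.81 CPM in wild-type and 1.29, 1.18 and 1.12 CPM in K27M libraries. The groups are far apart, with a 6.90-fold fall (log2 fold change -2.79 in both fits, SE 0.13, adjusted p = 0.000262). Hoxa4 fell 6.02-fold and Hoxa3 fell 3.52-fold, but Hoxa3 transcripts overlap Hoxa4 and Hoxa5 and could share reads with them. Hoxa9, which is not expressed in normal forebrain, had 1, 0 and 2 counts in wild-type and 25, 16 and 24 counts in K27M libraries. The ratio of levels over the groups was 12.6, with a 95% interval of 4.11 to 62.4 that covers counting error only (adjusted p = 0.00380). With transcripts tested one by one its listed transcript gave an adjusted p of 0.0423, or 0.0582 in the GC-adjusted fit. Hoxa10 had 4 counts over the wild-type and 93 over the K27M libraries (adjusted p = 0.00542), all in a single listed transcript that the annotation holds to be non-coding. Hoxa2 stood at a log2 fold change of 0.57 (adjusted p = 0.194). The start of Hoxa5, which fell, is rich in CpG, and that of Hoxa9, which rose, is poor in CpG, as printed above for these 2 genes only. Both Cdkn2a starts, with 45 and 12 CpGs, belong to transcripts that fell, the one with 12 by more. A link between CpG content and direction was not tested.

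**Figure D3:**
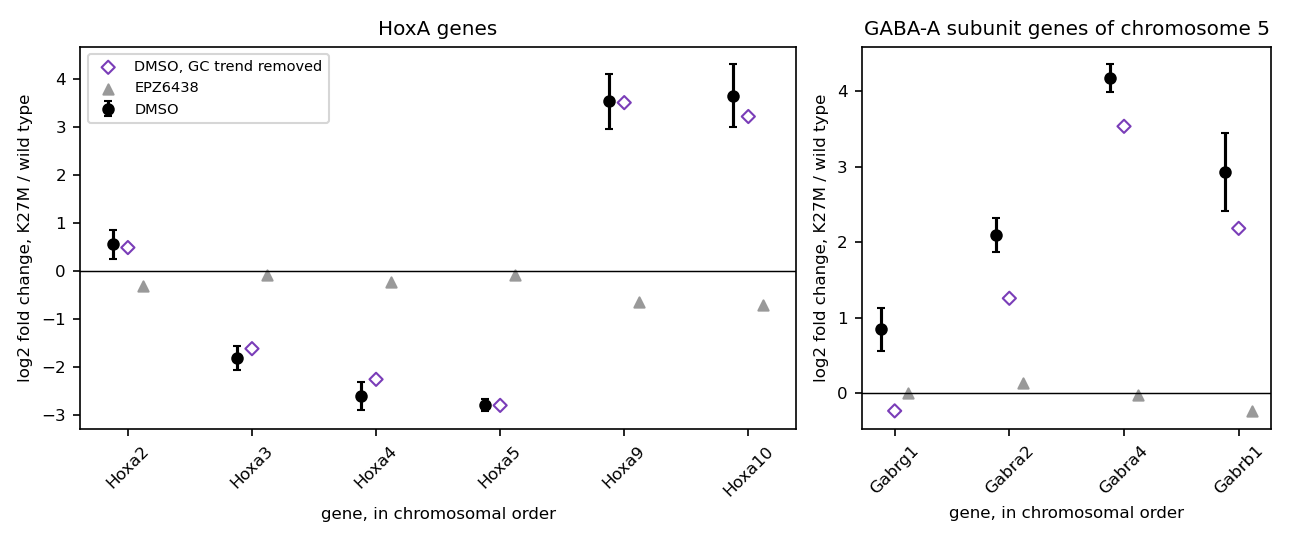
Log2 fold change of K27M over wild type (y) of neighbouring genes in chromosomal order (x), for 6 tested HoxA genes and 4 GABA-A receptor genes of chromosome 5. Black points with SE are the DMSO comparison, open diamonds the same in the GC-adjusted fit, and grey triangles the comparison under EPZ6438. The triangles of Hoxa9 and Hoxa10 sum more listed transcripts than their DMSO points. Hoxa3, Hoxa4 and Hoxa5 lie at -1.81, -2.59 and -2.79 and Hoxa9 and Hoxa10 at 3.54 and 3.66 in DMSO, while the triangles lie between -0.70 and 0.13.

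Of 37 tested homeobox and Pax genes 15 rose (40.5%) and 11 fell (29.7%), with 14 shared rises (37.8%) and 6 shared falls (16.2%). The median was 0.25 (0.34 in the GC-adjusted fit). The 11 falls became 5 without wild-type replicate 3, 4 without K27M replicate 1 and 6 without K27M replicate 2, and the 6 shared falls became 2 and 3 without the first 2 of these, while the rises numbered 14 to 17. Otx2, a forebrain and midbrain patterning factor, stood at 1.60, 2.02 and 2.41 CPM in wild-type and 7.77, 6.78 and 6.73 CPM in K27M libraries, without overlap (3.49-fold, log2 fold change 1.80, SE 0.17, adjusted p = 0.000952). Irx2, an Iroquois factor, rose 2.31-fold. Pax9, a factor of the pharynx and skeleton, had 16, 12 and 10 counts in wild-type libraries and none in K27M libraries, at least 21.9-fold lower against a floor of 3 counts over the group. Six2, known as a factor of kidney progenitors, fell 4.34-fold from 0.883 ± 0.445 to 0.207 ± 0.108 CPM and lost its call without wild-type replicate 3 (adjusted p = 0.0664). Onecut2 fell 2.48-fold, or by 1.92 on the log2 scale in the GC-adjusted fit, at about 1 CPM, and lost its call without wild-type replicate 3 (0.0832) or K27M replicate 1 (0.0544) or 2 (0.0600).

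Of 30 T-box, forkhead, GATA, Twist and Sox genes, a list that includes Runx, Zeb and Zic factors, 17 rose (56.7%) and 4 fell (13.3%). Shared calls were 13 rises (43.3%) and 1 fall (3.33%), and the median was 0.41 (0.44 in the GC-adjusted fit). The rises numbered 10 to 17 and the shared rises 10 to 15 with single libraries left out, with 11 rises without K27M replicate 1 and 10 without K27M replicate 2. The 4 falls became 2 without wild-type replicate 2 or 3 or K27M replicate 1 or 2, and the shared fall was lost without any K27M library. Foxp2, a forkhead factor of neurons, went from 0.760, 0.184 and 0.317 to 2.02, 2.36 and 1.58 CPM, a 4.60-fold rise from very low counts (log2 fold change 2.20, or 1.59 in the GC-adjusted fit). Its relative Foxp1 rose 2.22-fold. Runx2, the osteoblast factor, rose 3.54-fold and overlaps Supt3, and Runx1, the blood factor, rose 2.41-fold.

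The Hedgehog pathway had 5 shared rises (33.3%) and 0 shared falls among 15 tested genes. In the plain fit alone it had 6 rises (40%) and 5 falls (33.3%), with a median of 0.08 (0.19 in the GC-adjusted fit). The falls numbered 1 to 6 with single libraries left out, with 1 without K27M replicate 2, 2 without wild-type replicate 3 and 3 without wild-type replicate 2 or K27M replicate 1. Hedgehog ligands relieve the receptor Ptch1's block on Smo, and Gli factors then activate Gli1 and Ptch1, which serve as readouts of the pathway. Shh, the ligand, stood at 16.2, 19.3 and 20.3 CPM in wild-type and 41.9, 40.3 and 43.0 CPM in K27M libraries. Gli1 stood at 1.98, 1.56 and 2.48 CPM in wild-type and 6.89, 7.44 and 7.81 CPM in K27M libraries. Neither gene's groups overlap. Shh rose 2.24-fold (log2 fold change 1.17, SE 0.09, adjusted p = 0.000580) and Gli1 3.61-fold (1.85, SE 0.17, adjusted p = 0.000897), or 1.31 and 2.21 in the GC-adjusted fit. Ptch1 rose 1.55-fold from 260 ± 7.43 to 403 ± 1.99 CPM, and Gli3, mainly a repressor in the absence of ligand, 1.76-fold. With GC and length trends removed the log2 fold changes of Ptch1 and Gli3, 0.63 and 0.82, became 0.27 and 0.37. Those of Shh and Gli1 were then 1.35 and 2.13. Smo, the signal transducer, stood at a log2 fold change of -0.26 (adjusted p = 0.0138) that turned to 0.07 in the GC-adjusted fit (adjusted p = 0.0775).

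Growth factor genes moved in both directions while genes that ERK signalling induces fell. Pdgfb, which encodes the driver ligand of these cells, stood at 66.2, 77.2 and 80.5 CPM in wild-type and 49.6, 45.9 and 48.6 CPM in K27M libraries. That is a 1.55-fold fall without overlap (log2 fold change -0.64, SE 0.08, adjusted p = 0.00213, or -0.25 in the GC-adjusted fit). The labels do not say whether the introduced PDGFB sequence is one that these counts include. Pdgfra, its receptor, was higher by 0.22 on the log2 scale (adjusted p = 0.0382) and by 0.09 in the GC-adjusted fit (adjusted p = 0.363). Of 32 tested PDGF, EGF, FGF and related ligands and receptors 13 rose (40.6%) and 7 fell (21.9%). Shared calls were 10 rises (31.2%) and 6 falls (18.8%). Met, the receptor of hepatocyte growth factor, went from 0.760, 0.460 and 0.508 to 2.94, 3.11 and 3.32 CPM, a 5.36-fold rise without overlap (adjusted p = 0.000913). Igf1, an insulin-like growth factor, rose 5.93-fold from 0.601 ± 0.205 to 3.62 ± 0.661 CPM, a log2 fold change of 2.57 that became 1.57 in the GC-adjusted fit. Nrg1, a ligand of the ErbB receptors, rose 2.22-fold and lost its call without wild-type replicate 3 (0.0633) or K27M replicate 2 (0.0584). Ngfr, a neurotrophin receptor, fell 3.16-fold and stood at 1.14 CPM or less in every library.

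Of 30 ERK feedback and target genes 5 rose (16.7%) and 22 fell (73.3%), with 3 shared rises (10%) and 16 shared falls (53.3%). The median was -0.40 (-0.20 in the GC-adjusted fit). Shared falls came in 14 to 17 genes with each library left out in turn. Junb, an immediate-early subunit of the AP-1 factor, stood at 20.8, 22.9 and 26.0 CPM in wild-type and 9.74, 10.1 and 10.1 CPM in K27M libraries. The fall was 2.34-fold without overlap between the groups (log2 fold change -1.22, SE 0.09, adjusted p = 0.000569), though Junb overlaps Prdx2. Phlda1, an ERK-induced gene, fell 1.97-fold from 43.8 ± 3.65 to 22.3 ± 1.81 CPM. Dusp1, a phosphatase of MAP kinases that overlaps Ergic1, fell 1.79-fold, and the early zinc finger gene Egr2 1.51-fold. Of the feedback inhibitors Dusp6, the ERK phosphatase, fell 1.21-fold (log2 fold change -0.27, or -0.34 in the GC-adjusted fit) and Spry2 1.20-fold (-0.27, or -0.57), both called in all 6 refits. Fos, Jun, Egr1, Etv4 and Etv5 were also among the 16. Rps6ka6, a kinase of the RSK family that ERK activates, went the other way, from 21.1, 15.7 and 13.2 to 65.4, 62.8 and 56.7 CPM (3.71-fold, log2 fold change 1.89, or 1.09 in the GC-adjusted fit).

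The 27 tested Notch pathway genes held 7 rises (25.9%) and 8 falls (29.6%), near the 29.8% and 30.4% of all genes tested. Their 5 shared rises (18.5%) and 3 shared falls (11.1%) stand beside 13.9% and 14.2% of all genes. Hey2, a repressor that Notch induces, stood at 1.75, 2.21 and 2.03 CPM in wild-type and 6.76, 6.56 and 6.48 CPM in K27M libraries, a 3.31-fold rise without overlap (adjusted p = 0.000533). Heyl, of the same family, rose 2.86-fold from 0.382 ± 0.0777 CPM. The ligand gene Jag1 rose 1.45-fold and Mfng, a glycosyltransferase that modifies Notch receptors, 1.24-fold. Dner, a non-canonical ligand, fell 1.49-fold.

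Astrocyte genes divided. Of 17 tested markers 6 rose (35.3%) and 8 fell (47.1%), with 5 shared rises (29.4%) and 7 shared falls (41.2%). Shared rises and falls were 5 and 9 without wild-type replicate 1, and 3 and 7 without K27M replicate 1 or 2. Gfap, the intermediate filament, stood at 40.1, 43.4 and 43.2 CPM in wild-type and 68.8, 67.4 and 71.1 CPM in K27M libraries. It rose 1.64-fold, and its log2 fold change of 0.71 became 0.98 in the GC-adjusted fit. Aqp4, the water channel of astrocyte endfeet, rose 3.02-fold from 4.83 ± 1.63 CPM, a log2 fold change of 1.60 that became 0.88 in the GC-adjusted fit. Aldoc, a glycolytic enzyme, stood at 390, 441 and 422 against 169, 162 and 172 CPM, a 2.49-fold fall without overlap (adjusted p = 0.000262). S100b, a calcium-binding protein whose gene overlaps Dip2a, fell 2.20-fold, and Slc1a2, the main glutamate transporter of astrocytes, 1.84-fold.

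Transporters and lipid enzymes fell more often than they rose. Of 24 tested amino acid and neurotransmitter transporters 7 rose (29.2%) and 11 fell (45.8%), against 29.8% and 30.4% of all genes tested. Shared rises numbered 3 (12.5%) and shared falls 9 (37.5%), against 13.9% and 14.2%, and the medians were -0.15 and -0.06. The rises were 3 without wild-type replicate 3, K27M replicate 1 or K27M replicate 2 and 4 without K27M replicate 3, and the shared rises were 5 without wild-type replicate 1. Slc6a11, a GABA transporter, stood at 735, 839 and 848 CPM in wild-type and 392, 390 and 402 CPM in K27M libraries, a 2.05-fold fall without overlap (log2 fold change -1.03, SE 0.06, adjusted p = 0.000354). Slc43a2, a transporter of large neutral amino acids, fell 2.22-fold, and the glycine transporter gene Slc6a9, which overlaps B4galt2, 2.19-fold. Slc7a3, a transporter of cationic amino acids, rose 1.99-fold but lost its call without wild-type replicate 3 (0.0601) or any K27M library (0.0553 to 0.0795).

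Of 40 tested genes of glycerol phosphate and fatty acid metabolism 5 rose (12.5%) and 17 fell (42.5%). Shared rises numbered 4 (10%) and shared falls 9 (22.5%), or 4 and 15 without wild-type replicate 1. The rises and the shared rises were both 2 without wild-type replicate 3 or any K27M library. Gpd1, which makes glycerol phosphate in the cytosol, stood at 166 ± 14.7 CPM in wild-type and 40.5 ± 1.20 CPM in K27M cells, a 4.10-fold fall with the groups apart (log2 fold change -2.04, SE 0.07, adjusted p = 0.000209). Acsbg1, an acyl-CoA synthetase of brain, fell 2.26-fold from 862 ± 64.7 to 381 ± 5.68 CPM, and Cpt1c, the brain form of carnitine palmitoyltransferase, 2.18-fold. Elovl6, a fatty acid elongase, rose 2.01-fold (adjusted p = 0.0607 with GC and length trends removed) and Acsl1, another acyl-CoA synthetase, 1.70-fold. Both lost their calls without wild-type replicate 3 (0.0837 and 0.105) or any K27M library (0.0530 to 0.0898 over both genes).

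Receptors for the transmitter GABA, which neural progenitors and glioma cells also express, gave some of the largest differences. Of 45 tested neurotransmitter receptors 14 rose (31.1%) and 13 fell (28.9%), with 9 shared rises (20%) and 6 shared falls (13.3%). These counts were near the shares over all genes tested, 29.8%, 30.4%, 13.9% and 14.2%. The rises were 8 without K27M replicate 1 and 9 without K27M replicate 2, and the falls were 8 without wild-type replicate 3 and 7, 6 and 5 without K27M replicates 1, 2 and 3. Gabra4, an α subunit of the GABA-A channel, had 0.304, 0.368 and 0.317 CPM in wild-type and 6.53, 5.69 and 5.86 CPM in K27M libraries. The groups are far apart, with an 18.1-fold rise (log2 fold change 4.17, SE 0.18, adjusted p = 0.000262, or 3.53 in the GC-adjusted fit). It lies in a group of 4 subunit genes on chromosome 5 (70751047 to 72149037). Its neighbour Gabra2 rose 4.26-fold, from 10.1, 5.33 and 5.97 to 33.8, 29.5 and 28.3 CPM (log2 fold change 2.09, or 1.25 in the GC-adjusted fit). Gabrb1, a β subunit, rose 7.62-fold from 9 to 120 counts over the groups (log2 fold change 2.93, or 2.18 in the GC-adjusted fit). It was called as a gene (adjusted p = 0.00533). Its single listed transcript was not called when transcripts were tested one by one (0.0774, or 0.199 in the GC-adjusted fit). Gabra4 and Gabrb1 overlap on opposite strands, and whether the counting used strand is not given in the sources used here, so their reads may not be separate. Gabrg1, a γ subunit at the end of the group, gave a log2 fold change of 0.84 (adjusted p = 0.0412) that turned to -0.24 in the GC-adjusted fit (adjusted p = 0.00719). Gabra3 on the X chromosome rose 11.7-fold from 0.152, 0 and 0.127 to 1.56, 1.09 and 1.08 CPM. Grik1, a kainate receptor of glutamate, rose 2.94-fold and lost its call without wild-type replicate 2 (0.0526) or K27M replicate 1 (0.0512).

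Among 52 tested potassium, sodium and calcium channel genes 12 rose (23.1%) and 15 fell (28.8%), against 29.8% and 30.4% of all genes tested. There were 11 shared rises (21.2%, and 7 genes without K27M replicate 1) and 7 shared falls (13.5%), against 13.9% and 14.2%. Kcnk1, a leak channel of potassium, stood at 15.1, 18.1 and 16.9 CPM in wild-type and 4.96, 4.68 and 4.65 CPM in K27M libraries, a 3.49-fold fall without overlap (adjusted p = 0.000286). Kcnj10, the inward rectifier of glia, fell 1.88-fold from 186 ± 5.45 to 98.6 ± 3.66 CPM. Kcnn2, a calcium-activated potassium channel, rose 2.47-fold, Cacna2d1, an auxiliary calcium channel subunit, 3.16-fold, and Scn7a, an atypical sodium channel, 4.25-fold from 0.837 ± 0.639 CPM (log2 fold change 2.09, or 1.31 in the GC-adjusted fit).

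Beside Pax9, 4 named genes had no count in all 3 libraries of 1 genotype. Such genes are listed only through the group in which they have counts. The K27M libraries were also deeper (22.05 to 24.08 M against 10.80 to 15.76 M), so numbers of such genes cannot be compared between directions. Fgf13, an intracellular FGF homologue that binds sodium channels, had 0 counts in every wild-type library and 80, 82 and 84 counts in the K27M libraries, at least 47.5-fold higher against a floor of 3 counts over the group. Scn1a, a neuronal sodium channel, had 0 and 21, 26 and 25 counts (at least 13.9-fold higher). Eps8l1, a regulator of actin, had 0 and 27, 24 and 29 counts (at least 15.4-fold higher). Gpr165, a receptor without a known ligand, had 0 counts over the wild-type and 55 over the K27M libraries (at least 10.6-fold higher). A single transcript of Fgf13 is listed, and other Fgf13 transcripts were not analysed here.

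Axon guidance genes, which steer growing axons and migrating progenitors, held 18 rises (31%) and 17 falls (29.3%) among 58 tested, near the 29.8% and 30.4% of all genes. Their 16 shared rises (27.6%) and 5 shared falls (8.62%) stand beside 13.9% and 14.2% of all genes. With each library left out in turn the rises numbered 10 to 21 and the shared rises 6 to 17. The shared rises were 8 without wild-type replicate 3, 6 without K27M replicate 1 and 10 without K27M replicate 2 or 3, and the rises without the first 3 of these were 11, 10 and 11. Epha3, an ephrin receptor, stood at 2.21, 1.65 and 1.46 CPM in wild-type and 13.9, 13.3 and 12.8 CPM in K27M libraries, a 7.53-fold rise without overlap (log2 fold change 2.91, SE 0.15, adjusted p = 0.000262, or 2.25 in the GC-adjusted fit). Slit2, a secreted repellent, rose 3.74-fold from 1.15 ± 0.395 to 4.41 ± 1.23 CPM, and the netrin receptor gene Unc5c 2.78-fold. The semaphorin gene Sema3e rose 3.04-fold (log2 fold change 1.60, or 0.92 in the GC-adjusted fit), a call lost with GC and length trends removed (adjusted p = 0.0865). Slit1 rose 1.75-fold but lost its call without any K27M library (0.0523 to 0.0651).

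Matrix and adhesion genes rose more often than they fell among the shared calls. Of 25 tested collagen genes 6 rose (24%) and 6 fell (24%), both below the 29.8% and 30.4% of all genes tested. Shared calls were 6 rises (24%) and 1 fall (4%), against 13.9% and 14.2%, and the medians were 0.10 and 0.34. The falls were 3 without wild-type replicate 2 or K27M replicate 1 and 2 without wild-type replicate 3 or K27M replicate 2 or 3. Col11a1, a minor fibrillar collagen, stood at 21.5, 13.1 and 15.2 CPM in wild-type and 78.4, 82.1 and 75.9 CPM in K27M libraries, a 4.73-fold rise without overlap (log2 fold change 2.24, SE 0.17, adjusted p = 0.000558). Col5a2 rose 1.80-fold, Col22a1 1.76-fold and Col12a1 1.65-fold, the last with an adjusted p of 0.215 with GC and length trends removed. Col18a1, a basement membrane collagen that overlaps Slc19a1, rose 1.28-fold and lost its call without K27M replicate 1 (0.0502) or 2 (0.0547). Of 25 integrin and laminin genes 10 rose (40%, or 6 without K27M replicate 2) and 4 fell (16%, or 8 without wild-type replicate 1). Shared calls were 7 rises (28%) and 3 falls (12%). The laminin chains moved apart: Lama2 rose 3.07-fold and Lama4 1.86-fold, while Lama3 fell 2.60-fold and Lama1 1.92-fold. Itga2, a collagen receptor subunit, rose 2.63-fold from 8.21 ± 2.01 to 21.7 ± 0.897 CPM.

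Imprinted genes, expressed from 1 parental allele, held 14 rises (58.3%) and 4 falls (16.7%) among 24 tested, with medians of 0.56 and 0.22. The shared rises were 6 (25%) and the shared falls 3 (12.5%), or 9 and 3 without wild-type replicate 1. The 14 rises became 9 without wild-type replicate 2, 6 without wild-type replicate 3, 8 without K27M replicate 1 or 2 and 7 without K27M replicate 3. Grb10, an adaptor that restrains insulin and growth factor receptors, stood at 5.09, 5.24 and 5.27 CPM in wild-type and 48.2, 46.6 and 45.5 CPM in K27M libraries. Replicates lie close together and the groups far apart, with an 8.98-fold rise (log2 fold change 3.17, SE 0.06, adjusted p = 1.48e-05, or 3.07 in the GC-adjusted fit). Asb4, a substrate receptor of ubiquitin ligases, rose 3.65-fold from 4.59 ± 0.794 to 16.6 ± 1.32 CPM, and Ppp1r9a, an actin-binding scaffold of synapses, 2.16-fold. Nnat, a small membrane protein of developing brain that lies within Blcap, fell 1.94-fold.

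**Figure D4:**
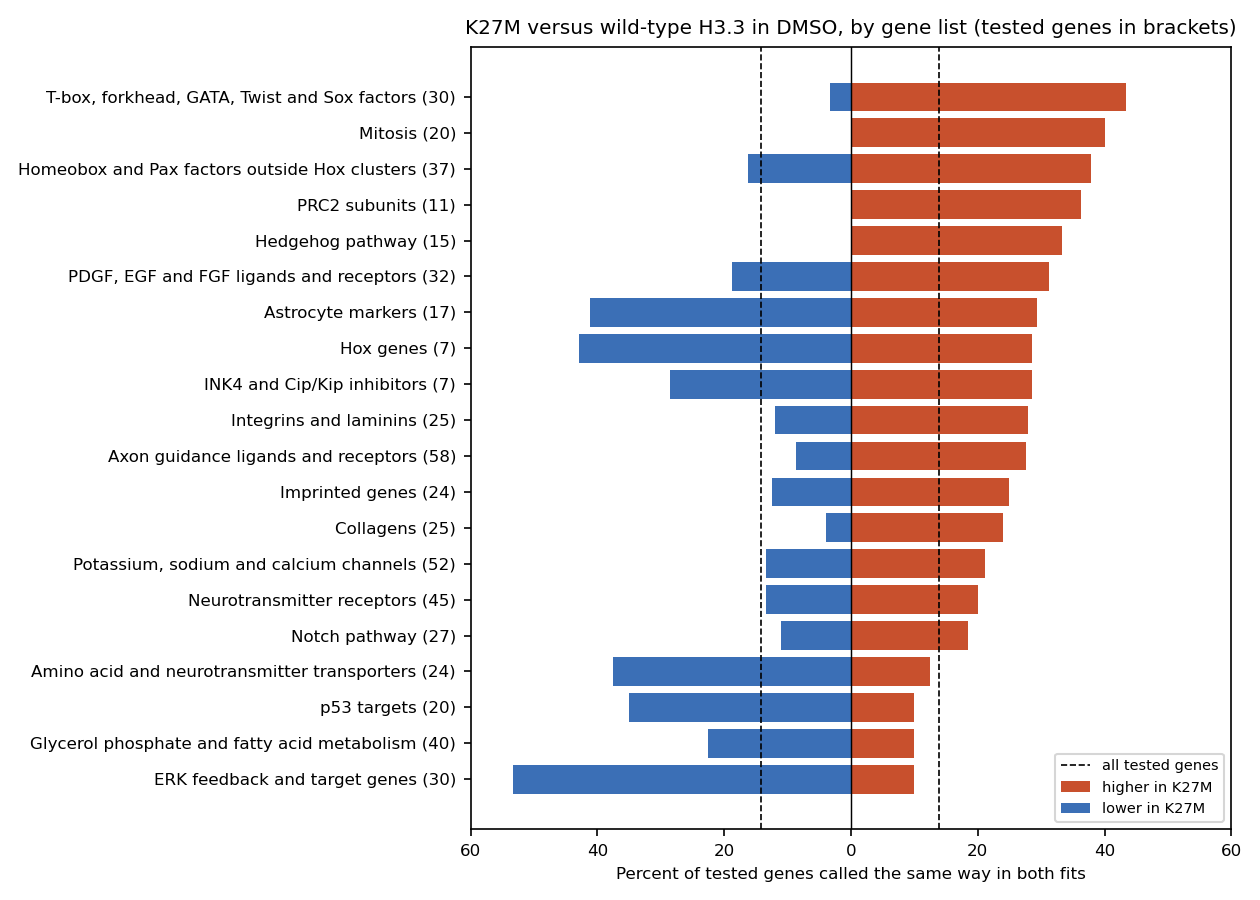
Percent of each list's tested genes (x) that were called in the same direction in both fits, with rises to the right and falls to the left, for 20 lists (y, number of tested genes in brackets). Dashed lines mark the shares over all tested genes, 13.9% and 14.2%. ERK feedback and target genes reach farthest to the left (16 of 30) and the T-box to Sox list farthest to the right (13 of 30).

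At or above the median abundance, the shared rises of greatest size over both fits included, beside Col11a1, Rps6ka6 and Cacna2d1, the adhesion gene Alcam, which rose from 23.3, 14.4 and 19.2 to 66.2, 63.9 and 58.7 CPM without overlap (log2 fold change 1.72). Anks1b, a synaptic scaffold, rose 2.53-fold, Igsf10, which overlaps Med12l, 2.38-fold, Nbea, a regulator of membrane traffic, 2.22-fold, and Ildr2 2.20-fold. Tbc1d4, which controls glucose transporter traffic, rose 2.12-fold from 38.0 ± 3.69 to 80.7 ± 1.22 CPM, and Nid1, a basement membrane linker, 1.94-fold. The kinase gene Yes1 rose 3.13-fold, from 50.4, 17.3 and 22.8 to 103, 92.7 and 87.9 CPM (log2 fold change 1.64, or 0.93 in the GC-adjusted fit). Kif21a, a kinesin, rose 2.41-fold and lost its call without wild-type replicate 3 (0.0561). Myo9a, a myosin, rose 3.21-fold and lost its call without wild-type replicate 2 (0.0810) or any K27M library (0.0642 to 0.0792), or with GC and length trends removed (0.0797). Golgb1, a Golgi protein, rose 1.99-fold and kept its call only without wild-type replicate 1 (0.0721 to 0.130 without the others, and 0.0502 with GC and length trends removed).

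The matching falls were called in all 6 refits. Lpo, a peroxidase, stood at 58.5, 61.7 and 61.1 CPM in wild-type and 19.1, 20.4 and 20.1 CPM in K27M libraries, a 3.04-fold fall without overlap (log2 fold change -1.60, SE 0.05, adjusted p = 0.000155). Psd, an exchange factor whose gene overlaps Nfkb2, fell 2.54-fold. Alpl, alkaline phosphatase, fell 2.37-fold and Timp4, an inhibitor of matrix metalloproteinases that lies within Syn2, 2.32-fold. The iron carrier gene Trf fell 2.25-fold, Ndrg4 2.06-fold, Tmem176a, which overlaps Tmem176b, 1.99-fold, and the glutathione transferase gene Gsta4 1.90-fold.

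The same genotypes differed far less in libraries grown with EPZ6438, which share no library with the DMSO comparison. Of 13060 genes tested under the inhibitor 234 were called (1.79%), 74 higher and 160 lower in K27M cells, and 2176 had an unadjusted p below 0.05. The count was 17 to 195 with each inhibitor library left out in turn, lowest without K27M EPZ replicate 3. In the GC-adjusted fit the counts were 308 and 413. Of the 3627 shared calls that were also tested under the inhibitor, 94 were called in the same direction and 39 in the opposite one. For the 272 shared calls of at least 2-fold that were tested there, the median absolute log2 fold change was 1.68 in DMSO and 0.25 under EPZ6438, where the DMSO value is raised by the choice of genes. Inhibitor libraries were shallower, at 7.90 to 14.6 M counts.

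The test of the difference between both genotype effects, the interaction term over all 12 libraries, called 4662 of 13040 genes (35.8%). Of the genes tested 1871 (14.3%) were called with the same sign after removal of the GC trend. This test summed only transcripts listed in all 4 comparisons of the series, unlike the fold changes given for DMSO and for EPZ6438. Of the 328 shared calls of at least 2-fold, 287 could be tested for the difference and 179 passed in both fits. These genes were chosen by their size in the same DMSO libraries that the test uses. That choice raises the number that pass, so it cannot be set against the 14.3% of all genes. Both Cdkn2a transcripts stood at like levels under EPZ6438, in a table normalized apart from the DMSO one. The p16Ink4a transcript had 41.6 ± 2.85 CPM in wild-type and 36.6 ± 5.46 CPM in K27M cells (log2 fold change -0.18, SE 0.13, adjusted p = 0.924), and the p19Arf transcript 55.3 ± 8.29 and 54.0 ± 3.95 CPM (-0.04, SE 0.12, adjusted p = 0.987). The genotype effect on the whole gene differed between media by 2.01 on the log2 scale (SE 0.12, adjusted p = 3.21e-06). Hoxa5 stood at 60.9 CPM in wild-type and 57.6 CPM in K27M cells under the inhibitor, Hoxa9 at 9.66 and 6.22 CPM and Gabra4 at 39.2 and 38.2 CPM, and in none of these 3 genes was the genotype effect called there in the plain fit. In the GC-adjusted fit Hoxa9 was lower in K27M cells by 0.62 on the log2 scale (adjusted p = 0.0291). Hoxa10, which rose in DMSO, was lower in K27M cells under EPZ6438 (log2 fold change -0.70, adjusted p = 0.0489, or 0.0172 in the GC-adjusted fit). Grb10 stood at 42.4 and 48.9 CPM and Gli1 at 6.87 and 6.11 CPM. Under EPZ6438 the sums of Hoxa9, Hoxa10 and Grb10 include transcripts that were not listed in DMSO. The Hoxa9 transcript listed in both media stood at 5.76 CPM in wild-type and 3.16 CPM in K27M cells under EPZ6438.

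Some astrocyte and transporter genes differed between the genotypes under the inhibitor as well. Slc6a11 stood at 251 and 140 CPM in wild-type and K27M cells under EPZ6438 (log2 fold change -0.84, adjusted p = 0.00123), and the difference between the effects was 0.23 (adjusted p = 0.0861). Kcnj10 fell there too (-0.67, adjusted p = 0.00486), as did Aldoc (-0.57, adjusted p = 0.00261). Of the 17 astrocyte markers 0 rose and 7 fell under EPZ6438, and of the transporters 0 rose and 5 fell. Gfap turned its direction: it rose in DMSO and fell under EPZ6438, from 45.3 to 26.2 CPM (-0.79, adjusted p = 0.00653), and the effects differed by -1.48 (adjusted p = 1.35e-05). Ptch1 likewise rose in DMSO and fell under EPZ6438 (-0.28, adjusted p = 0.0276), as did Nid1 (-0.35, adjusted p = 0.0489) and Hoxa10. Dusp6, which fell in DMSO, was higher in K27M cells under EPZ6438 (0.21, adjusted p = 0.0428).

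**Figure D5:**
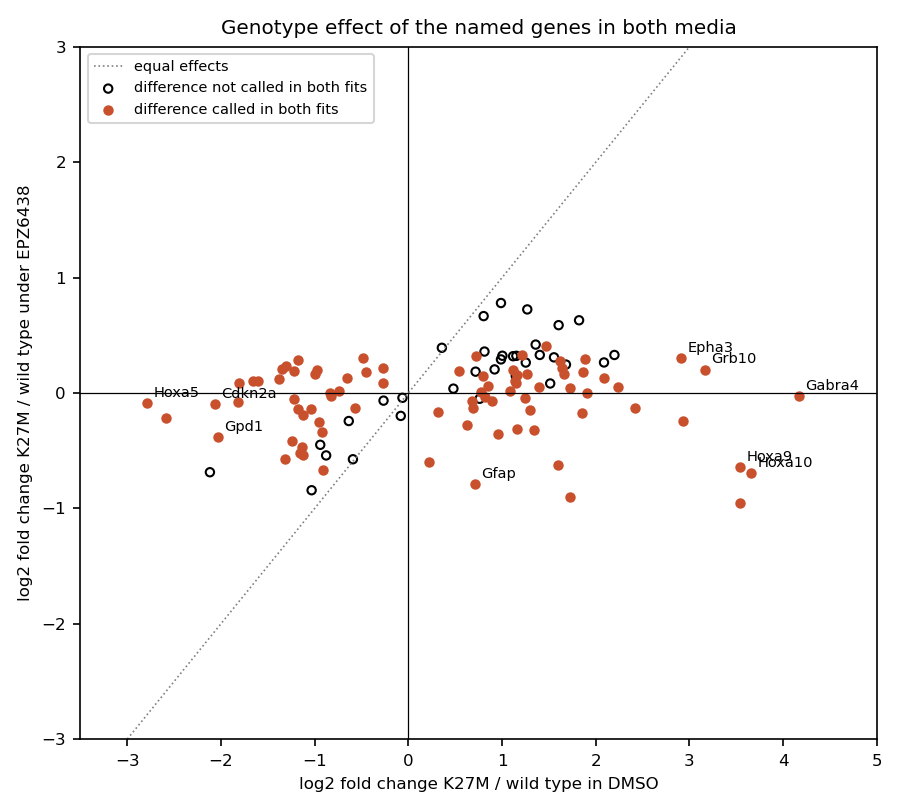
Log2 fold change of K27M over wild type under EPZ6438 (y) against that in DMSO (x) for the named genes with counts in every group and values in both comparisons. Filled points are genes whose difference between the effects was called in both fits, open points the others, and the dotted line marks equal effects. Hoxa9, Hoxa10 and Grb10 sum more listed transcripts under EPZ6438 than in DMSO. Gabra4 lies at 4.17 in DMSO and -0.03 under EPZ6438, Hoxa5 at -2.79 and -0.08, and Gfap at 0.71 and -0.79.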

How the data were processed

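Polyadenylated RNA was sequenced from 12 libraries in 4 groups of 3. Per the submitters' processing notes, kallisto and sleuth were used with GRCm38 (mm10). Which versions, annotation and strand setting were used is not stated there. Per the file headers, the authors deposited estimated counts per transcript and library in 4 tables of 6 libraries each. These were divided by a size factor per library, which was recovered from the values and undone. Transcripts are listed from 5 counts in 3 libraries upward, so weaker transcripts were not analysed here.

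Estimated counts were summed per gene, rounded and tested with edgeR 4.0.16 in R 4.3.3 (filterByExpr, TMM, quasi-likelihood test, two-sided, Benjamini-Hochberg adjustment, called below 0.05). Every adjusted p is from edgeR. The adjusted fit adds offsets from a smoothing spline of each library's log2 deviation on transcript GC (df 5). CPM are normalized within each comparison. The totals of 10.80 to 24.08 M limit precision for genes near 1 CPM, and intervals cover counting error only.

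The members and the 42 gene lists were chosen with earlier results of these data known. Named genes are H3f3a, H3f3b, Ezh2 and Cdkn2a, up to 5 shared calls and 2 defining genes per described list, 15 rises and 15 falls of greatest size at or above the median abundance, and genes with 0 counts in 1 group and at least 30 in the other. Clone names, predicted genes and pseudogenes were left out, and a few single genes are not reported here, though list counts include them. The HoxA and GABA-A neighbours Hoxa2 and Gabrg1, and the genes listed without values, were added after their values were seen. Alternatives were other size factors, no filter, DESeq2 1.42.0, thinning, a replicate block, libraries left out, and GC and length trends.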

Additional observations from a re-analysis of the deposited data

Results flagged for a closer look

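Of 123 genes named by rule, 86 had a genotype effect that differed between DMSO and EPZ6438, by the interaction term of edgeR's quasi-likelihood test with Benjamini-Hochberg adjustment, with and without the GC trend. Over all genes the share that did so was 14.3%, and genes named here were chosen for their size in DMSO, so a smaller effect elsewhere is favoured by that choice. The value given with each gene is the interaction term, which measures how far the genotype effect under EPZ6438 lies above that in DMSO. It was fitted over transcripts listed in all 4 comparisons of the series. It can therefore differ from a subtraction of the fold changes given above, as for Igsf10 (1.25 in DMSO and -0.04 under EPZ6438).

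Rises in DMSO whose effect was lower under EPZ6438 included the patterning and Polycomb genes Hoxa9 (-4.34), Hoxa10 (-4.29), Otx2 (-1.93), Irx2 (-0.87), Ezh2 (-0.62) and Jarid2 (-0.72). In the Hedgehog and Notch pathways the effect was lower for Gli1 (-1.99), Gli3 (-0.81), Ptch1 (-0.87), Shh (-0.97), Hey2 (-2.58), Jag1 (-0.31) and Mfng (-0.44). Among growth factor, kinase and cell cycle genes it was lower for Met (-2.63), Pdgfra (-0.78), Rps6ka6 (-1.57), Yes1 (-1.41), Cdkn1b (-0.73), Cdkn1c (-1.43) and Perp (-0.79). Among receptor and channel genes it was lower for Gabra2 (-1.94), Gabra3 (-4.45), Gabra4 (-4.17), Gabrb1 (-3.13), Kcnn2 (-1.42), Cacna2d1 (-1.48), Anks1b (-1.68) and Nbea (-1.03). Among guidance, adhesion and matrix genes it was lower for Epha3 (-2.58), Slit2 (-1.72), Unc5c (-1.21), Alcam (-1.67), Col11a1 (-2.16), Col5a2 (-0.75), Col12a1 (-0.37), Lama2 (-1.30), Lama4 (-0.93), Itga2 (-1.31) and Nid1 (-1.27). It was also lower for Gfap (-1.48), Aqp4 (-2.18), Grb10 (-2.85), Asb4 (-1.66), Ppp1r9a (-0.88), Igsf10 (-1.91), Ildr2 (-1.01), Kif21a (-1.08) and Tbc1d4 (-1.09).

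Falls in DMSO whose effect was higher under EPZ6438 included Cdkn2a (2.01), Hoxa3 (1.77), Hoxa4 (2.40), Hoxa5 (2.74), Onecut2 (1.57), Ngfr (1.80), Lama3 (1.53) and Dner (0.45). Among ERK target and p53 target genes the effect was higher for Junb (1.45), Phlda1 (1.21), Dusp1 (0.88), Dusp6 (0.53), Spry2 (0.40), Aen (0.82), Bax (0.80), Cdkn1a (0.68), Sesn2 (0.83) and Tnfrsf10b (0.83). Among metabolic, transport and astrocyte genes it was higher for Gpd1 (1.69), Acsbg1 (1.08), Cpt1c (0.98), Aldoc (0.78), S100b (0.71), Slc43a2 (0.67), Slc6a9 (0.60), Kcnj10 (0.29), Kcnk1 (1.94), Alpl (0.87) and Gsta4 (0.63). It was also higher for Lpo (1.74), Psd (1.59), Trf (1.52), Timp4 (1.20), Tmem176a (1.20), Ndrg4 (0.97) and Nnat (0.72). Fgf13 and Pax9 each have a DMSO group without counts, so their fitted differences of -9.20 and 6.37 depend on the prior count and measure no size. No group had the 4 samples that a check for outlying samples needs.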

How the results depend on the processing

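In DMSO the 7897 calls (3906 rises, 3991 falls) numbered 7075 to 8201 with RLE size factors, no filter, DESeq2, a shared spread over 12 libraries, thinning to the smallest library, the deposited values as they stand or centred effects. With the GC trend removed there were 5656, and 5714 with the length trend removed as well. Genes with a single listed transcript gave 2686 (1330 and 1356), with fewer genes tested (4955). Leaving out single libraries gave 5026 to 9276 calls, with 2230 to 4622 rises and 2764 to 4654 falls. The lowest counts came without wild-type replicate 3 (5105), K27M replicate 1 (5092) and K27M replicate 2 (5026), the highest without wild-type replicate 1. With the GC trend removed as well these ranges were 3611 to 7179, 1695 to 3485 and 1916 to 3694. The cause was not tested.

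Deviations of same-numbered DMSO libraries correlated at 0.36, -0.18 and 0.46, or 0.26, 0.01 and 0.21 with the GC trend removed. Deviations from a mean of 3 libraries depend on each other, so these values cannot decide whether replicate numbers pair the samples. With the number as a replicate block there were 7118 calls (3654 and 3464), or 5217 (2564 and 2653) with the GC trend removed. Under EPZ6438 the 234 calls became 539 with the block, 721 with the GC trend removed and 800 with both, and 17 to 195 with a library left out. The 4662 differences between effects became 5772 with the block, 2811 with the GC trend removed, 3223 with both and 3238 to 6821 with a library left out. The cause was not tested.

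Smo changed sign, from -0.26 to 0.0732 with the GC trend removed, 0.0731 with the block added and 0.0155 with GC and length trends removed. With single libraries left out it ran from -0.33 to -0.23, and with the GC trend removed as well from 0.0539 to 0.0804. With GC and length trends removed, H3f3a stood at 0.10 and Pdgfra at -0.20, and 7 shared calls were lost: Bax (-0.14), Cdkn1a (-0.0753), Col12a1 (0.14), Elovl6 (0.33), Golgb1 (0.54), Myo9a (0.66) and Sema3e (0.64). Named genes lost a call in 157 of their gene and setting pairs, gained one in 12 and changed sign in 11.

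Genes near 1 CPM rest on few counts, and unlisted transcripts could not be compared. GC content, transcript length and depth moved with genotype, and the level of the mutant histone was not measured.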
